A study of Mus musculus with 14 samples.

Results

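The 9 genes Pemt, Chka, Chkb, Pcyt1a, Pcyt2, Chpt1, Cept1, Etnk1 and Slc44a1 encode choline uptake and the steps that make phosphatidylcholine and phosphatidylethanolamine. They were taken by gene symbol, with the brightest probe set where a gene had more than 1, out of 19505 genes named on the array. All 9 were measured, no filter on low values was applied, and only Pemt had more than 1 probe set, with 5. Clariom S arrays, 14 in all, measured expression in wild-type C57Bl6 mice, adult males kept for 2 weeks on CDAA, a choline-deficient diet that here also held added cholesterol, glucose and fructose, or on CSAA, its choline-supplemented control. The groups were total liver on CDAA and on CSAA (4 arrays each) and primary hepatocytes on CDAA and on CSAA (3 arrays each), each array from an independent preparation. Total liver was the caudal lobe taken after perfusion with saline. Hepatocytes came from a collagenase perfusion, and the 2 kinds of sample went through different RNA kits. The labels give the added cholesterol and sugars for CDAA only, so that their part and the lack of choline cannot be told apart. Whether a preparation held 1 mouse or a pool is not given in the sources used here. Values are levels on the log2 scale, on which a difference of 1 is a doubling, and diet differences are CDAA minus CSAA.

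Phosphatidylcholine, the main lipid of cell membranes, is built in most cells from choline. Choline enters through carriers such as Slc44a1, is phosphorylated by a choline kinase (Chka or Chkb), is activated to CDP-choline by Pcyt1a, the rate-limiting enzyme of the route, and is joined to diacylglycerol by Chpt1 or Cept1. Phosphatidylethanolamine is built in parallel from ethanolamine by Etnk1, Pcyt2 and, among others, Cept1. The liver has a further route, in which Pemt methylates phosphatidylethanolamine to phosphatidylcholine and so needs no dietary choline. The liver uses phosphatidylcholine to coat the lipoproteins that carry fat out of it, and choline-deficient feeding is known to make fat build up there.

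Promoter windows from RefSeq (GRCm38.p6) hold the bases upstream of a gene's start. They were available for 8 of the 9 genes, as 14 windows, with none for Pcyt2, and 2 are shown. The Pcyt1a window is shown because Pcyt1a was the 1 gene of the 8 with a match to TCACNCCAC, letters of the sterol regulatory element bound by the SREBP factors. The Chpt1 window is shown because Chpt1 had the most matches to the GC box. Bases are printed 5′ to 3′ on the gene's strand, and capitals mark the matches.
Pcyt1a, chr16:32430671-32430920, plus strand: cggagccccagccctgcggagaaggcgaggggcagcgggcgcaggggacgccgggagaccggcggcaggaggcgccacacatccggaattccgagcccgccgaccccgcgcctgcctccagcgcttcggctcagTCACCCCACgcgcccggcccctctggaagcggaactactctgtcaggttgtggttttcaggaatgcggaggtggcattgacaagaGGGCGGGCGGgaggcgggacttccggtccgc
Chpt1, chr10:88503971-88504220, minus strand: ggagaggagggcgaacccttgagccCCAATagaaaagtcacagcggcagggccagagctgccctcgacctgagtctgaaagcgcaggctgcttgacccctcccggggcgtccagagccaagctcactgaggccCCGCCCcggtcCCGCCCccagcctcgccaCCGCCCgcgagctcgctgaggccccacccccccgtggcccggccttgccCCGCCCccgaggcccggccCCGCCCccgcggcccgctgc
In this Pcyt1a window, the most upstream for the gene, the sterol element letters start 116 bases before the annotated start. There 2 overlapping copies of the GC box GGGCGG start 31 and 27 bases before that start. The window of another Pcyt1a start, chr16:32430980-32431229, held neither. The Chpt1 window holds 5 GC boxes, all read on the opposite strand as CCGCCC, and 1 CCAAT. Both strands of all 32851 windows were searched: 1.05% held the sterol element letters, 32.7% the GC box and 33.8% CCAAT. The E-box CACGTG (6.02%) and the cyclic AMP element TGACGTCA (1.55%) were also searched and matched none of the 14 windows. A match describes the letters alone, and no binding was measured.

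The hepatocyte preparations on CDAA carried transcripts of other liver cells at levels far above those on CSAA. For Kupffer cells, the resident macrophages, all 6 markers rose on CDAA in hepatocytes (limma, adjusted p under 0.05), and their mean level per array lay between 10.98 and 12.67 on CDAA, against 5.18 to 5.71 on CSAA, where all 6 stayed under the background of negative control probe sets. All 6 measured markers of recruited macrophages rose too (9.40 to 11.20 on CDAA, 4.30 to 4.53 on CSAA), as did all 5 of sinusoidal endothelium (9.38 to 10.73 on CDAA, 5.74 to 6.22 on CSAA) and all 5 of stellate cells (9.51 to 10.61 on CDAA, 5.47 to 6.30 on CSAA). In total liver all 6 recruited macrophage markers rose (9.88 to 11.06 on CDAA, 5.81 to 5.86 on CSAA), as did 3 of 6 Kupffer, 1 of 5 endothelial and 2 of 5 stellate markers. The macrophage markers Trem2 and Itgax stayed under the background in every liver. Itgax and the stellate marker Des stayed under it in every hepatocyte array. The 8 hepatocyte markers were bright in every group, with means of 17.73 to 17.78 on CDAA and 17.79 to 17.87 on CSAA in total liver, and of 18.40 to 18.46 on CDAA and 18.72 to 18.87 on CSAA in hepatocytes; 2 of 8 fell in hepatocytes and 1 of 8 rose in total liver. Of 13 hepatocyte reference genes, secreted proteins and enzymes of hepatocytes with group means under 16, 4 fell in total liver and 11 in hepatocytes, with median diet differences of -0.56 and -1.63. In RNA of mixed cells, fewer cells of a type and less RNA per cell cannot be told apart, and the part of these cells in the results for the 9 genes was not tested. Arrays of hepatocytes also varied more about their groups: the root mean square deviation was 0.363 to 0.594 there and 0.229 to 0.320 for total liver. The fit behind the adjusted p-values shares 1 spread over all arrays, and a fit to the arrays of 1 tissue alone stands beside it, marked as alone. On simulated arrays with a spread per tissue, the shared fit gave many false calls for hepatocytes, so its hepatocyte counts may be too high. For total liver the shared fit called 10.3% of all probe sets and the fit alone 20.8%, so its total liver counts may be too low. In hepatocytes alone the counts of Kupffer, macrophage, endothelial and stellate markers were the same, 1 of 8 hepatocyte markers fell, and 6 of the 13 reference genes fell. In total liver alone 6 of 6 macrophage, 5 of 6 Kupffer, 2 of 5 endothelial and 3 of 5 stellate markers rose, 1 hepatocyte marker rose and 1 fell, and 8 of the 13 reference genes fell.

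**Figure D1:**
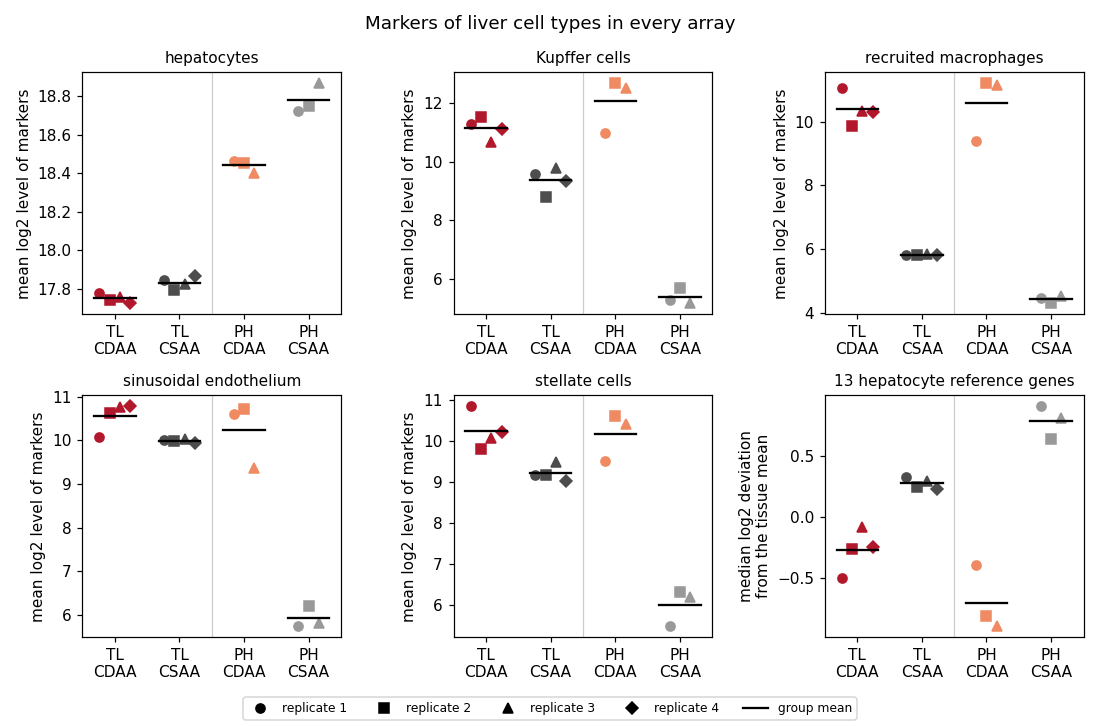
Mean log2 level of the markers of 5 liver cell types in each array, and the median log2 deviation of 13 hepatocyte reference genes from their mean in the tissue, by group (TL, total liver; PH, primary hepatocytes); points are arrays and bars are group means. The markers of Kupffer cells, macrophages, endothelium and stellate cells sat apart between the PH groups, at 10.98 to 12.67 on CDAA and 5.18 to 5.71 on CSAA for Kupffer cells.

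Among the 9 genes, Pcyt2, which makes CDP-ethanolamine, fell most in hepatocytes on CDAA, to 0.278 of its CSAA level, and Etnk1, the ethanolamine kinase before it, fell as well but only with the shared spread; relative to hepatocyte reference genes, described further on, Etnk1 turned and Pcyt2 did not pass with the 13 genes under 16. On the deposited scale, the choline-side genes, Pemt and the carrier did not pass the test in either tissue with the shared spread. Other scalings, described further on, changed this for some of them, in either direction. In hepatocytes 2 of 9 genes were called, both lower, while 18.7% of all probe sets were called and 7.74% were called lower; 5 of 9 had an unadjusted p under 0.05, as 31.1% of all probe sets did. In total liver 0 of 9 were called and 2 had an unadjusted p under 0.05 by limma, while 10.3% of all probe sets were called and 23.6% had such an unadjusted p. With the total liver arrays alone 2 of 9 were called, both lower, while 20.8% of all probe sets were called and 9.05% were called lower. The diet difference had a median over the 9 genes of -0.57 in hepatocytes and -0.33 in total liver, beside -0.13 and -0.092 over all probe sets.

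**Figure D2:**
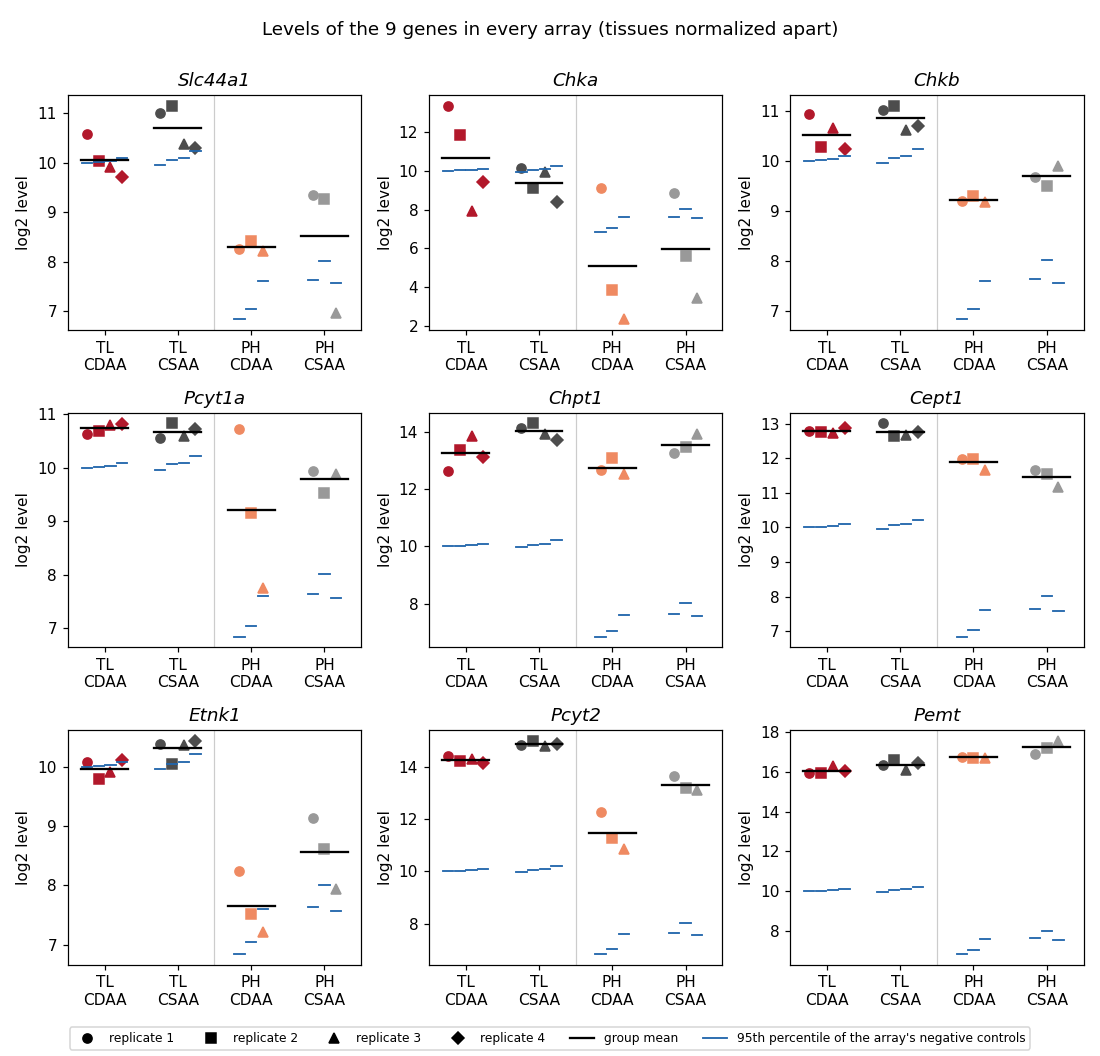
Log2 level of each of the 9 genes in every array, by tissue (TL, total liver; PH, primary hepatocytes) and diet; points are arrays, black bars are group means and blue bars are the 95th percentile of that array's negative control probe sets. The PH arrays on CDAA hold Pcyt2 between 10.85 and 12.28, under all PH arrays on CSAA, and Chka is spread over several units in both PH groups.

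On the ethanolamine side, Pcyt2 had levels of 12.28, 11.28 and 10.85 on CDAA, against 13.65, 13.19 and 13.10 on CSAA in hepatocytes. All 3 CDAA preparations lay under all 3 CSAA preparations. The means were 11.47 ± 0.73 on CDAA and 13.32 ± 0.30 on CSAA (SD, n = 3 each), a difference of -1.85 ± 0.29 (SE; limma, adjusted p = 0.000226). With the hepatocyte arrays alone the adjusted p was 0.028, in a fit that called 8.48% of all probe sets and 1.95% as lower on CDAA. Of the CDAA preparations, replicate 1 had the highest Pcyt2 level and the lowest means of the Kupffer, macrophage and stellate markers, while replicate 3, with the lowest Pcyt2 level, had the lowest mean of the endothelial markers (9.38, against 10.61 in replicate 1). Without CDAA replicate 1 the difference was -2.25, and leaving out any 1 hepatocyte array kept the call. In total liver Pcyt2 had 14.41, 14.21, 14.29 and 14.15 on CDAA, against 14.82, 14.997, 14.79 and 14.85 on CSAA. The 4 CDAA livers again lay under the 4 CSAA livers, where groups that do not overlap, lower on CDAA, made up 12% of all probe sets in this tissue. The difference of -0.60 ± 0.25 did not pass with the shared spread (limma, adjusted p = 0.152) and passed with the total liver arrays alone (adjusted p = 0.00783), a fit that called 20.8% of all probe sets and 9.05% as lower. The exact permutation test for it, two-sided, gave p = 0.0286, the smallest that 4 against 4 allows.

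Etnk1, which phosphorylates ethanolamine, had levels of 8.24, 7.51 and 7.21 on CDAA, against 9.15, 8.61 and 7.94 on CSAA in hepatocytes. The highest CDAA preparation lay above the lowest CSAA preparation, so the groups overlap, and 1 of the CDAA preparations was under its array's background. Etnk1 fell by 0.91 ± 0.30 on the log2 scale (SE; limma, adjusted p = 0.0441). The call was lost with the hepatocyte arrays alone (adjusted p = 0.248), with trend and robust moderation (0.0561), without CSAA replicate 1 (0.189) or 2 (0.106) and without CDAA replicate 2 (0.13) or 3 (0.146). In total liver Etnk1 had 10.08, 9.80, 9.91 and 10.11 on CDAA, against 10.40, 10.06, 10.38 and 10.45 on CSAA. These lay close to the background, with 2 of 4 CDAA livers and 3 of 4 CSAA livers above it, and the difference of -0.34 ± 0.26 did not pass (adjusted p = 0.458, limma).

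Of the transferases that finish the lipids, Chpt1, which joins CDP-choline to diacylglycerol, had levels of 12.67, 13.08 and 12.53 on CDAA, against 13.26, 13.47 and 13.92 on CSAA in hepatocytes. All CDAA preparations were under all CSAA preparations, with a difference of -0.79 ± 0.29 that did not pass (limma, adjusted p = 0.0738, and 0.164 with the hepatocyte arrays alone). In total liver Chpt1 had 12.64, 13.36, 13.88 and 13.13 on CDAA, against 14.14, 14.31, 13.95 and 13.73 on CSAA. Only CDAA replicate 3 reached into the range of the CSAA livers. The difference there was -0.78 ± 0.25 and fell short of the threshold with the shared spread (limma, adjusted p = 0.066), but passed with the total liver arrays alone (0.0421) and without CDAA replicate 3 (a difference of -0.99, adjusted p = 0.0201). Cept1, which serves both the choline and the ethanolamine route, had higher values on CDAA in hepatocytes, with 11.98, 11.99 and 11.66 on CDAA, against 11.66, 11.55 and 11.15 on CSAA. The lowest CDAA value stood barely above the highest CSAA value, and the difference of 0.42 ± 0.20 did not pass (limma, adjusted p = 0.156). In total liver Cept1 had 12.77, 12.75, 12.74 and 12.87 on CDAA, against 13.01, 12.64, 12.66 and 12.75 on CSAA, which overlap, with a difference of 0.021 ± 0.17 (adjusted p = 0.958, limma).

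Pcyt1a, which activates choline to CDP-choline, had levels of 10.73, 9.15 and 7.75 on CDAA, against 9.94, 9.52 and 9.88 on CSAA in hepatocytes. The CDAA preparations were spread widely and enclosed the CSAA preparations, and the difference of -0.57 ± 0.48 did not pass (limma, adjusted p = 0.456). Replicate 1, the highest, decided this value: without it the difference was -1.33 (adjusted p = 0.00412, limma). In total liver Pcyt1a had 10.62, 10.69, 10.80 and 10.81 on CDAA, against 10.56, 10.83, 10.59 and 10.72 on CSAA. The groups overlap there, and the difference was 0.059 ± 0.41 (adjusted p = 0.953, limma), with a 95% interval of -0.82 to 0.94.

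Of the choline kinases, Chka had the largest standard error of the 9 genes in both tissues, with levels of 9.09, 3.83 and 2.34 on CDAA, against 8.84, 5.61 and 3.45 on CSAA in hepatocytes. In each diet 1 preparation was above the background and the others were under it. In total liver Chka had 13.35, 11.84, 7.94 and 9.41 on CDAA, against 10.12, 9.10, 9.92 and 8.39 on CSAA. Its highest and lowest livers were both on CDAA, and its differences of 1.25 ± 1.41 in total liver and -0.88 ± 1.63 in hepatocytes had adjusted p-values of 0.638 and 0.759 (limma). Chkb, the second choline kinase, had 9.19, 9.30 and 9.17 on CDAA, against 9.67, 9.50 and 9.90 on CSAA in hepatocytes. All CDAA preparations were under all CSAA preparations, with a difference of -0.47 ± 0.23 that did not pass (limma, adjusted p = 0.173). In total liver Chkb had 10.93, 10.27, 10.65 and 10.22 on CDAA, against 11.02, 11.09, 10.61 and 10.68 on CSAA, which overlap, and its difference was -0.33 ± 0.20 (adjusted p = 0.33, limma). The choline carrier Slc44a1 had 8.27, 8.42 and 8.22 on CDAA, against 9.35, 9.27 and 6.96 on CSAA in hepatocytes. Its lowest value was the CSAA replicate 3, under its array's background, and the difference of -0.22 ± 0.48 (limma, adjusted p = 0.796) was -1.01 without that array (adjusted p = 0.03). In total liver Slc44a1 had 10.59, 10.04, 9.92 and 9.70 on CDAA, against 10.99, 11.14, 10.38 and 10.30 on CSAA, which overlap, and its difference was -0.64 ± 0.42 (adjusted p = 0.381, limma), with 2 of 4 CDAA livers above the background and 4 of 4 CSAA livers.

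Pemt, the methyltransferase that makes phosphatidylcholine from phosphatidylethanolamine, had levels of 16.75, 16.72 and 16.70 on CDAA, against 16.91, 17.21 and 17.56 on CSAA in hepatocytes. The CDAA preparations lay close together and under all CSAA preparations, and the difference of -0.50 ± 0.21 did not pass (limma, adjusted p = 0.113). In total liver Pemt had 15.93, 15.94, 16.28 and 16.04 on CDAA, against 16.35, 16.60, 16.09 and 16.43 on CSAA. CDAA replicate 3 lay within the CSAA livers, and the difference was -0.32 ± 0.18 (adjusted p = 0.315, limma). All 5 Pemt probe sets had lower means on CDAA in both tissues, the differences being -0.44 to -0.52 for hepatocytes and -0.20 to -0.32 for total liver, and none passed. In hepatocytes 5 of the 9 genes had groups that do not overlap, 4 of them lower on CDAA (Pcyt2, Chpt1, Chkb and Pemt), while 26.6% of all probe sets had such groups and 14.2% had them lower on CDAA. With 3 against 3 preparations the exact permutation test cannot go below p = 0.1.

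**Figure D3:**
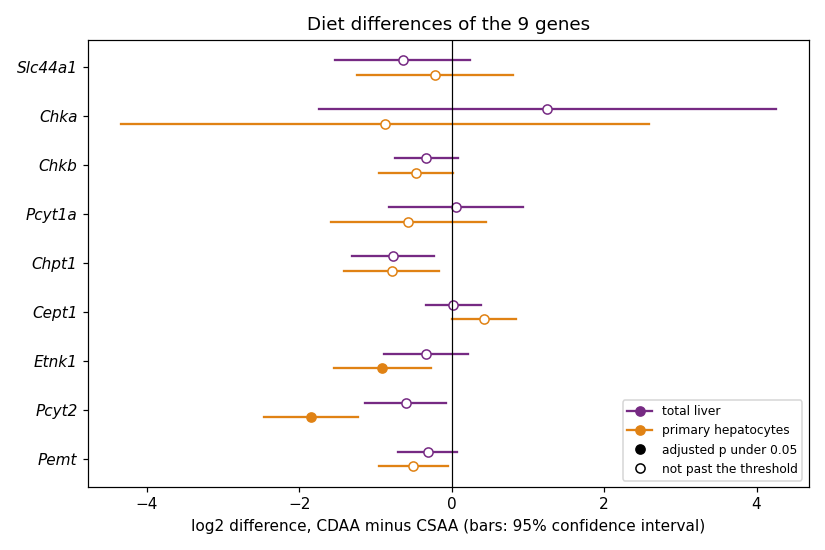
Log2 difference, CDAA minus CSAA, of each of the 9 genes in total liver and in primary hepatocytes, with its 95% confidence interval; a filled circle has an adjusted p under 0.05 in the fit over all 14 arrays. The 2 filled circles are Pcyt2 (-1.85) and Etnk1 (-0.91) in hepatocytes.

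These directions hold relative to all probe sets of an array and depend on that scale: when the arrays of a tissue are set instead to the median deviation of the hepatocyte reference genes under 16, 7 of 9 turn in hepatocytes and 3 of 9 (Pemt, Chkb and Etnk1) in total liver. Those reference genes had lower medians on CDAA. This setting raised every CDAA minus CSAA difference, the reference shift being -0.55 in total liver and -1.48 in hepatocytes, and in hepatocytes Pemt (0.98), Chkb (1.01), Pcyt1a (0.91), Chpt1 (0.69), Cept1 (1.90) and Slc44a1 (1.26) then passed as higher on CDAA. Pcyt2 kept a negative difference there (-0.37), which did not pass (limma, adjusted p = 0.195), and Etnk1 turned to 0.57 (adjusted p = 0.0727). In total liver Pcyt2 then stood at -0.058 (limma, adjusted p = 0.858) and Chpt1 at -0.23 (adjusted p = 0.494). On that scale 19895 of 22206 probe sets were called in hepatocytes, so 6 of 9 genes called is a share under that of all probe sets. With all 38 measured reference genes Pcyt2 still fell in hepatocytes (-0.90, adjusted p = 0.0079). Both of these scales were chosen after the data were seen. The first version tried, the median level of the same 13 genes, gave the same signs in hepatocytes, with Pcyt2 at -0.27. In total liver it turned Pemt, Chkb, Pcyt2 (to 0.79), Chpt1, Etnk1 and Slc44a1. There 7 of the 9 genes were called, all higher, while 21109 of 22206 probe sets were called.

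**Figure D4:**
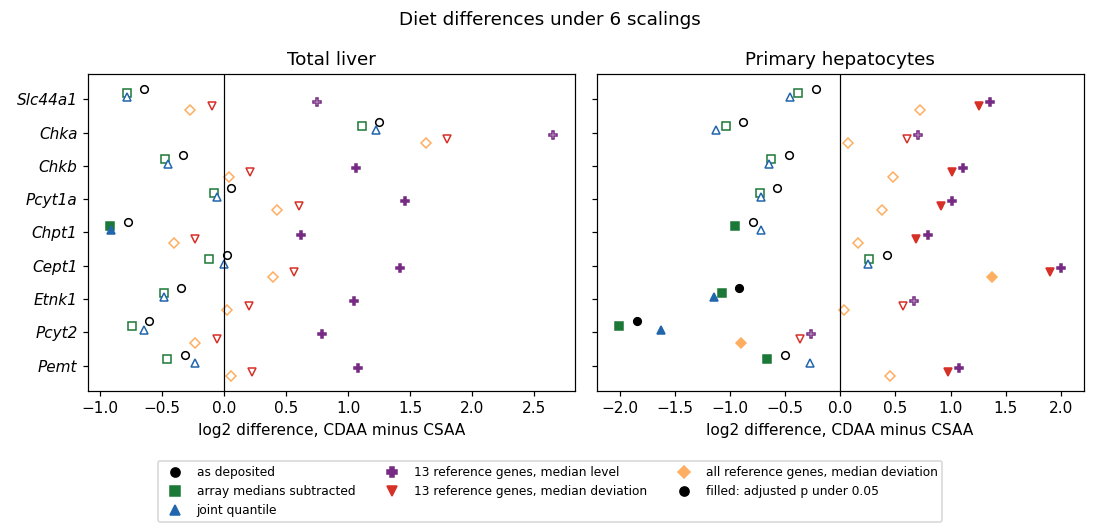
Log2 difference, CDAA minus CSAA, of the 9 genes in total liver and in primary hepatocytes under different scalings of the arrays; filled symbols have an adjusted p under 0.05. Setting arrays to the hepatocyte reference genes moves the symbols to the right, for Pcyt2 in hepatocytes to between -0.90 and -0.27, left of 0 under each scaling drawn.

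The difference of the diet effects between the 2 kinds of sample, total liver minus hepatocytes, was tested. It passed for 0 of the 9 genes (1 had an unadjusted p under 0.05 by limma), while 2.57% of all probe sets passed and 11.8% had such an unadjusted p. That gene was Pcyt2, with 1.24 ± 0.38 (SE; adjusted p = 0.13, and 0.29 with a spread per tissue). The outcome depended on CDAA hepatocyte replicate 1: without it the difference was 1.65 for Pcyt2 (limma, adjusted p = 0.00137) and 1.39 for Pcyt1a (0.0334). For Chpt1 the effects were -0.78 ± 0.25 in total liver and -0.79 ± 0.29 in hepatocytes, with a difference of 0.015 ± 0.39 whose 95% interval ran from -0.81 to 0.84. Levels were not tested between the tissues. The tissues also had unlike backgrounds, and markers of other cells rose in the CDAA hepatocyte preparations. The part of either in these differences was not tested.

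After each tissue's mean was taken off, the 9 genes varied together only in part over the 14 arrays. Pcyt2 and Etnk1, consecutive steps of the ethanolamine route, had r = 0.87, and Pemt and Chpt1 had r = 0.84. Pemt and Cept1 ran opposite, at r = -0.66. The genes most like Pcyt2 in this measure were Hgfac (0.981), F2 (0.980) and Ergic1 (0.979). F2, prothrombin, is also 1 of the hepatocyte reference genes. Those most like Etnk1 were Tgoln1 (0.961), Gm4349 (0.955) and Snrnp200 (0.951). The arrays share diet groups and scaling, so these values describe the arrays and carry no test.

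Genes around the 9 were counted in 7 lists, of which 67 of 75 genes were measured. In hepatocytes 12 rose and 14 fell, or 38.8% beside the 18.7% of all probe sets (11% of all higher and 7.74% of all lower on CDAA). With the hepatocyte arrays alone 10 rose and 3 fell, where 6.53% of all probe sets were called higher and 1.95% lower. In total liver 10 rose and 2 fell, or 17.9% beside 10.3% (6.73% of all higher and 3.54% of all lower). Of the genes that rose there, Flvcr2, Lpcat2, Gdpd1, Pla2g4a and Ctps were under the background in all 8 livers. Smpd3 was above it in only 1 CDAA liver, and Plpp2 in no CSAA liver. With the total liver arrays alone 18 rose and 10 fell, where 11.7% of all probe sets were called higher and 9.05% lower. In the list closest to the 9 genes, the other headgroup steps, 0 of 5 measured genes passed in either tissue with the shared spread, where 18.7% and 10.3% of all probe sets did; with the total liver arrays alone 1 of 5 passed, Pisd (0.53 ± 0.14, limma, adjusted p = 0.0214 alone), which was under the background in all 8 livers. The list also held Selenoi, the ethanolamine phosphotransferase (-1.03 ± 0.68 in hepatocytes, -0.39 ± 0.59 in total liver), and Ptdss1, a phosphatidylserine synthase (-0.53 ± 0.23 and -0.10 ± 0.20). Ptdss2 and Pcyt1b were under the background in most arrays. Etnk2 was not measured.

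Of the genes that supply diacylglycerol and CTP, the other substrates of the route, 2 of 8 rose and 1 fell in hepatocytes, and 3 rose and 1 fell in total liver, with the same counts in each tissue alone. Lpin1, a phosphatidate phosphatase that makes diacylglycerol, had 8.27, 7.10 and 7.37 on CDAA, against 10.37, 10.78 and 10.23 on CSAA in hepatocytes and 9.66, 10.46, 11.03 and 11.60 on CDAA, against 12.31, 11.54, 13.99 and 13.28 on CSAA in total liver. Its groups stood apart in hepatocytes and its CDAA livers reached only just into the CSAA range. It fell by 2.88 ± 0.56 in hepatocytes (limma, adjusted p = 0.00152, and 0.00249 alone) and by 2.09 ± 0.48 in total liver (adjusted p = 0.0102, and 0.014 alone); 1 CDAA array in each tissue was under the background. Ctps2, a CTP synthase, rose by 1.56 ± 0.24 in hepatocytes (limma, adjusted p = 0.000184, and 0.0169 alone) and 1.24 ± 0.21 in total liver (0.000897, and 0.000251 alone). In total liver all 4 CDAA livers but only 1 of 4 CSAA livers were above the background for Ctps2, so the size of that difference is set against values mostly at the background. The direction of Lpin1 was the same under the reference-gene scales. Those scales raised every CDAA minus CSAA difference, so the sign of Ctps2 could not turn there.

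Of choline oxidation and methyl supply, which draw on choline and make the methyl donor that Pemt uses, 7 of 12 measured genes fell in hepatocytes, where 7.74% of all probe sets were called lower, and 1 of 12 in total liver, where 3.54% were. With the hepatocyte arrays alone 1 of 12 fell, Ahcy (adjusted p = 0.0454), beside 1.95% of all probe sets, and with the total liver arrays alone 1 rose and 6 fell, beside 11.7% called higher and 9.05% lower. Gnmt, a glycine methyltransferase that competes for that donor, fell by 1.38 ± 0.35 in hepatocytes (limma, adjusted p = 0.0109, and 0.133 alone) and 1.01 ± 0.30 in total liver (0.0458, and 0.00147 alone), but was 0.099 in hepatocytes relative to the 13 reference genes. Acyl remodelling had 2 of 6 genes higher in hepatocytes, the acyltransferases Lpcat1 and Lpcat2, and 1 of 6 in total liver, Lpcat2; alone, 1 of 6 was higher in hepatocytes and 2 of 6 in total liver. Lpcat1 was under the background in all hepatocyte arrays and did not pass there alone (adjusted p = 0.164), and Lpcat2 was under it in all 8 livers. Lpcat2 was under the background in every CSAA preparation and was higher on CDAA in hepatocytes by at least 1.32 on the log2 scale (limma, adjusted p = 8.96e-08, and 0.000363 alone). Transfer and export had 2 of 10 higher and 2 lower in hepatocytes, and 2 higher in total liver; alone, 2 were higher in hepatocytes, and 3 were higher and 1 lower in total liver. Pltp, a phospholipid transfer protein, had 13.44, 15.19 and 14.002 on CDAA, against 9.85, 9.85 and 6.87 on CSAA in hepatocytes, with groups far apart and 2 of 3 CSAA preparations above the background (a rise of 5.35 ± 0.65, limma, adjusted p = 1.92e-05, and 0.007 alone). Breakdown and base release had 3 of 18 higher and 4 lower in hepatocytes and 3 higher in total liver, and choline transport had 3 of 8 higher in hepatocytes and 1 in total liver. Those 3 choline transport genes, Flvcr1, Flvcr2 and Slc44a2, were under the background in all 8 livers and in every CSAA hepatocyte preparation. Of the 3 CDAA hepatocyte preparations, 1, 1 and 2 were above it for these genes. Alone, breakdown had 3 higher and 1 lower in hepatocytes and 5 higher and 2 lower in total liver, and choline transport had 2 higher in hepatocytes and 3 in total liver; the shares of all probe sets are those given with the 67 genes. The markers of macrophages and other cells listed above rose in the same hepatocyte preparations, and their part in these values was not tested.

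**Figure D5:**
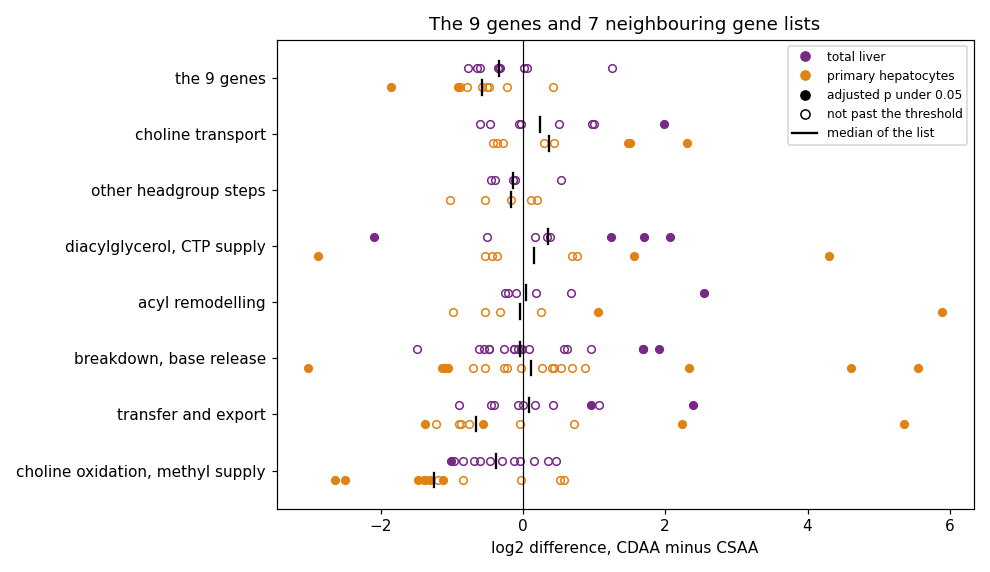
Log2 difference, CDAA minus CSAA, of the 9 genes and of 7 lists of neighbouring genes in total liver and in primary hepatocytes; each circle is a gene, a filled one has an adjusted p under 0.05, and a black bar is the median of the list. The filled circles of choline oxidation and methyl supply all lie left of 0, 7 in hepatocytes and 1 in total liver.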

How the data were processed

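Labelling used the WT PLUS kit, per the labels' protocols. The authors deposited log2 intensities, 1 per probe set, obtained with RMA, per the submitters' processing notes, with no version stated. RMA subtracts background, equalises the arrays' distributions and summarises the probes, so a shift shared by most probe sets would be removed. Array medians over all probe sets were 6.07 to 6.24 in total liver and 4.56 to 4.71 in hepatocytes, so the tissues look normalized as 2 sets, and levels were not tested between them. Of 28846 probe sets, 6640 controls were left out and 22206 tested. Of these, 19572 had 1 symbol, 0 several and 2634 none in the platform annotation. Groups were taken from the sample titles. A group-means model over 14 arrays was fitted with limma 3.58.1 in R 4.3.3 (10 residual and 5.11 prior degrees of freedom), with two-sided moderated tests, p-values adjusted by Benjamini-Hochberg over the 22206 probe sets and a threshold of 0.05. Background was the 95th percentile of 5222 negative control probe sets on each array: 9.96 to 10.23 in total liver and 6.84 to 8.01 in hepatocytes. A gene under it on every array of a group was given a bound from that percentile. Precision is limited by how many arrays there are.

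The 9 genes, the lists and the markers were chosen with earlier results of these data known. Named were all 9 genes, up to 3 genes per list and diet contrast past the threshold with the smallest p, these further genes of the pathway (Etnk2, Pcyt1b, Selenoi, Ptdss1, Ptdss2, Pisd, Lpcat3, Abcb4, Chdh and Gnmt), and the 3 genes most alike in Pearson's r to each of the 9 that passed. Alternatives were the moderation, each tissue alone, a filter on the dimmest 30% of probe sets, other scalings, weights for arrays, a block for the replicate number, each array left out, and averaging a gene's probe sets. Residuals of equal replicate numbers correlated at -0.13 to 0.02 in total liver and at 0.35, -0.21 and 0.26 in hepatocytes. The main fit did not pair the arrays, and a shared effect of the replicate number was not tested. With that number as a block, Etnk1 in hepatocytes had a difference of -0.91 ± 0.20 (SE; limma, adjusted p = 0.00891). For Chka in hepatocytes the standard error was then 0.79. Marker lists of cholangiocytes (0 of 4 passed in either tissue), lymphocytes (0 of 4) and neutrophils (3 of 3 measured higher in hepatocytes, 2 of 3 in total liver) were also counted. All 3 neutrophil markers were under the background in every liver, and Csf3r was under it in every hepatocyte array. Simulated arrays served as a check of the code. Where each tissue was simulated with its own spread, the fit with the shared spread gave many false calls for hepatocytes. Its adjusted p-values for hepatocytes may therefore be too small, and the fit to the hepatocyte arrays alone is given for that reason. No coordinates of probe sets are given, since their genome build is not given in the sources used here.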

Additional observations from a re-analysis of the deposited data

Results flagged for a closer look

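Etnk1 in the CSAA livers had 1 array far from the others: replicate 2 stood at 10.06, under the other 3 at 10.38 to 10.45, and close to its array's background. Slc44a2, a choline carrier-like protein, had replicate 2 of the CSAA livers at 6.17, under 6.72 to 6.79, all below background. Plpp1, a lipid phosphate phosphatase, had replicate 1 of the CDAA livers at 10.69, under 11.57 to 11.68. A sample far from the other 3 was looked for in 76 groups of 4 (38 genes by 2 diets in total liver), and chance alone flags about 5% of such groups; the hepatocyte groups, of 3 arrays, were too small to screen.

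The diet effect differed between the tissues for 4 neighbouring genes, each with a larger rise in hepatocytes, and for none of the 9. Total liver minus hepatocytes, Lpcat2 had -3.34 ± 0.56 (limma, adjusted p = 0.00291), from diet differences of 2.55 in total liver and 5.89 in hepatocytes. Gdpd1, a glycerophosphodiester phosphodiesterase, had -2.92 ± 0.63 (limma, adjusted p = 0.018), from diet differences of 1.69 in total liver and 4.62 in hepatocytes. Pla2g4a, a cytosolic phospholipase A2, had -3.87 ± 0.73 (limma, adjusted p = 0.00664), from diet differences of 1.68 in total liver and 5.55 in hepatocytes. For Plpp1 it was -3.96 ± 0.53 (limma, adjusted p = 0.000424), from diet differences of 0.34 in total liver and 4.30 in hepatocytes. Lpcat2, Gdpd1 and Pla2g4a were under the background in both total liver groups, and all 4 were under it in CSAA hepatocytes, so these fitted values are no folds. Markers of Kupffer cells, macrophages, endothelium and stellate cells rose in the same CDAA hepatocyte preparations, and their part in these differences was not tested.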

How the results depend on the processing

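Calls for the 9 genes numbered 0 in total liver, 2 in hepatocytes and 0 for the difference between tissues, out of 2279, 4158 and 570 probe sets. Depth is not defined for arrays. Chka, Etnk1 and Slc44a1 were under the background in some arrays of both tissues. The hepatocyte arrays, 3 per diet, had a wider spread. With each tissue alone the calls were 2 of 9 in total liver (Pcyt2 and Chpt1; 4613 probe sets) and 1 of 9 in hepatocytes (Pcyt2; 1883 probe sets). Trend and robust moderation left 1 of 9 in hepatocytes. Array weights gave 4992, 6806 and 2725 probe sets, with 2 of 9 in total liver and 1 for the difference, Pcyt2. Joint quantile normalization gave 1 of 9 in total liver (Chpt1). Subtracting array medians gave 1 there (Chpt1) and 4 in hepatocytes (Pemt, Pcyt2, Chpt1 and Etnk1), all lower. It split the probe sets called in total liver into 1265 higher and 1650 lower, against 1494 and 785. In hepatocytes that split was 2149 higher and 3244 lower after medians and 2360 and 3068 after joint quantiles, against 2439 and 1719. The replicate number as a block gave 2215, 4285 and 615 probe sets and 0, 2 and 0 of the 9 genes, and changed no call among the 9. The dim filter and the mean over probe sets changed none either; Pcyt1b fell to that filter and was not run.

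Signs that turned with weights or simple scalings were few. After joint quantiles in total liver, differences of opposite sign were -0.060 for Pcyt1a and -0.00047 for Cept1. After joint quantiles in hepatocytes, differences of opposite sign were -0.15 for Pisd. After joint quantiles for the difference between tissues, differences of opposite sign were -0.19 for Chpt1. After array medians in total liver, differences of opposite sign were -0.080 for Pcyt1a and -0.12 for Cept1. After array medians in hepatocytes, differences of opposite sign were -0.042 for Pcyt1b. With array weights in hepatocytes, differences of opposite sign were 0.23 for Ptdss2. With array weights for the difference between tissues, differences of opposite sign were -0.24 for Chpt1.

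Setting the arrays of a tissue to hepatocyte reference genes moved most. The form listed first subtracted the median level of the 13 genes under 16, which shifted CDAA against CSAA by -1.40 in total liver and -1.58 in hepatocytes and called 21109, 20301 and 550 probe sets, with 7, 6 and 0 of the 9 genes; 21014 and 20163 of the calls in total liver and hepatocytes were higher. After this outcome was seen, a median of each gene's deviation from its tissue mean was added, with shifts of -0.55 and -1.48, since a median of raw levels can step between genes of unlike level; it called 5808, 19895 and 8706 probe sets, with 0, 6 and 1 of the 9 genes (Cept1 for the difference), and 5571 and 19733 of the calls in the tissues were higher. The same over all 38 genes, also added after seeing the data, had shifts of -0.37 and -0.95 and called 3590, 13809 and 1546 probe sets, 3299 and 13462 of them higher in the tissues. Each of these settings subtracts its shift from every CDAA minus CSAA difference in that tissue. Which scale gives the true direction was not tested. With the median level in total liver, differences of opposite sign were 1.08 for Pemt, 1.06 for Chkb, 0.79 for Pcyt2, 0.62 for Chpt1, 1.05 for Etnk1, 0.75 for Slc44a1, 0.38 for Gnmt, 0.50 for Atp8b1, 1.10 for Ahcy, 0.94 for Aldh7a1, 0.80 for Dmgdh, 1.26 for Pcyt1b, 1.01 for Selenoi, 1.29 for Ptdss1, 0.95 for Ptdss2 and 1.36 for Chdh. With the median level in hepatocytes, differences of opposite sign were 1.08 for Pemt, 0.70 for Chka, 1.11 for Chkb, 1.01 for Pcyt1a, 0.79 for Chpt1, 0.67 for Etnk1, 1.36 for Slc44a1, 0.20 for Gnmt, 0.21 for Atp8b1, 0.11 for Ahcy, 0.27 for Aldh7a1, 0.55 for Selenoi, 1.05 for Ptdss1, 1.41 for Ptdss2, 0.60 for Lpcat3, 1.55 for Abcb4 and 0.40 for Chdh. With the median level for the difference between tissues, differences of opposite sign were -0.000083 for Pemt, -0.049 for Chkb and -0.17 for Chpt1. With the median deviation of the 13 genes in total liver, differences of opposite sign were 0.23 for Pemt, 0.21 for Chkb, 0.20 for Etnk1, 0.25 for Ahcy, 0.086 for Aldh7a1, 0.41 for Pcyt1b, 0.16 for Selenoi, 0.44 for Ptdss1, 0.099 for Ptdss2 and 0.51 for Chdh. With the median deviation of the 13 genes in hepatocytes, differences of opposite sign were 0.98 for Pemt, 0.60 for Chka, 1.01 for Chkb, 0.91 for Pcyt1a, 0.69 for Chpt1, 0.57 for Etnk1, 1.26 for Slc44a1, 0.099 for Gnmt, 0.11 for Atp8b1, 0.014 for Ahcy, 0.17 for Aldh7a1, 0.45 for Selenoi, 0.95 for Ptdss1, 1.31 for Ptdss2, 0.50 for Lpcat3, 1.45 for Abcb4 and 0.30 for Chdh. With the median deviation of the 13 genes for the difference between tissues, differences of opposite sign were -0.75 for Pemt, -0.80 for Chkb, -0.31 for Pcyt1a, -0.92 for Chpt1 and -0.37 for Etnk1. With all 38 genes in total liver, differences of opposite sign were 0.055 for Pemt, 0.040 for Chkb, 0.028 for Etnk1, 0.081 for Ahcy, 0.24 for Pcyt1b, 0.27 for Ptdss1 and 0.33 for Chdh. With all 38 genes in hepatocytes, differences of opposite sign were 0.45 for Pemt, 0.070 for Chka, 0.48 for Chkb, 0.38 for Pcyt1a, 0.16 for Chpt1, 0.036 for Etnk1, 0.73 for Slc44a1, 0.42 for Ptdss1, 0.78 for Ptdss2 and 0.91 for Abcb4. With all 38 genes for the difference between tissues, differences of opposite sign were -0.39 for Pemt, -0.44 for Chkb, -0.56 for Chpt1 and -0.0079 for Etnk1.

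Leaving out each array in turn gave 1510 to 1911 probe sets in total liver, 3039 to 5811 in hepatocytes and 396 to 2265 for the difference, with 0 to 1, 1 to 3 and 0 to 2 of the 9 genes. The lowest count in total liver, 1510, came without CDAA replicate 1, and the highest for the difference, 2265, without CDAA hepatocyte replicate 1. Some values changed sign when 1 array was left out, and their ranges follow. In total liver these were Cept1 (-0.020 to 0.10) and Chdh (-0.18 to 0.14). In hepatocytes these were Chka (-2.88 to 0.56), Pcyt1a (-1.33 to 0.16), Slc44a1 (-1.01 to 0.19), Ptdss2 (-0.39 to 0.038), Pisd (-0.067 to 0.53) and Abcb4 (-0.67 to 0.30). For the difference between tissues these were Chkb (-0.0012 to 0.23), Pcyt1a (-0.10 to 1.39), Chpt1 (-0.19 to 0.22) and Slc44a1 (-0.83 to 0.36). The cause was not tested. Differences between tissues of the 25 named neighbouring genes that did not pass are not reported; over their alternatives 17 of 624 values turned sign and 35 passed the threshold.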
